A study of Gallus gallus with 32 samples.

Results

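The genes that dock, prime and fuse secretory vesicles were followed through the pituitary and the hypothalamus of Ross 308 cockerels, a fast-growing line kept for meat. A row of the count table entered the group when its symbol began with SYT, VAMP, STX, CPLX, RIMS, UNC13, RAB3, RAB27, SV2 or STXBP, or was one of a few named SNARE and vesicle genes, and when its mean count over the 32 libraries was at least 10. This gave 65 of the 24881 genes, among the 10132 that carry a symbol in the deposited tables. Of the 65, 11 are RAB30 to RAB39 genes that enter only because their symbols share the letters RAB3, and they are kept as a group of their own, which leaves 54. VAMP2, CPLX2, SYP, NSF and the synapsins SYN1, SYN2 and SYN3 had no row with a symbol and were not analysed here.

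The 16 birds each gave both tissues, with 4 birds in each of the low growth rate (LGR) and high growth rate (HGR) groups at 6 and at 3 weeks of age, so each of the 8 groups holds 4 libraries. The labels give the age as day 42 and day 22, while the study's methods give a later day for the older birds, which are called 6 weeks old here. The library titles also carry a second number code for the ages, which matches neither day. They name the growth groups light and heavy, which are read here as LGR and HGR. All birds were males of 1 line, and no drug, transgene or mutation was used. By the study's methods both growth groups had the same feeds, which changed with age from starter to grower to finisher. An effect of diet or of the day of slaughter therefore cannot be told apart from one of age. The growth groups were formed on body mass after the second week and, by the study's methods, housed in pens of their own, so an effect of pen cannot be told apart from one of growth rate. Total counts ran from 14351918 to 18256297 in 15 pituitary libraries and from 13845756 to 17536175 in the 16 hypothalamus libraries. The remaining pituitary library, replicate 4 of the LGR birds at 3 weeks, held 6231478 counts. It stood apart from the other pituitary libraries, with 35 of the 65 genes at their lowest and 13 at their highest pituitary level, and values without it are given for the genes described in full where it moved a limit of the pituitary range by more than 1.5 times or changed a call.

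Vesicle fusion runs on SNARE proteins, which sit on the vesicle and on the plasma membrane and pull both together when they zip into 1 bundle. Munc18-type proteins (the STXBP genes) hold the syntaxins, Munc13 and RIM proteins (UNC13 and RIMS genes) ready the docked vesicle, complexins clamp the bundle, and synaptotagmins release it when calcium arrives. In neurons this machinery empties synaptic vesicles within the hypothalamus and its nerve endings, and in the endocrine cells of the pituitary a related set empties hormone granules. The levels below are CPM, a library's counts scaled to a common total, after TMM scaling over all 32 libraries. They are compared within a gene and never between genes, since the files used give no transcript lengths. The pituitary library with the low total is called the library of low depth below. Its TMM factor was 0.685, and the next lowest factor in the pituitary was 0.969. CPM already allow for the total of a library, and why the levels of this library stood apart was not tested.

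Marker genes separated the tissues as labelled. The 8 measured of 12 pituitary endocrine markers, with the corticotropin precursor POMC among them, summed to 61100 to 174000 CPM in the pituitary, against 38.9 to 960 CPM in the hypothalamus. The 8 measured of 13 neuron markers summed to 735 to 1070 CPM (median 851) in the pituitary, against 2990 to 5760 CPM (median 4270) in the hypothalamus. STMN2 was the largest part of the pituitary sum, with a median of 616 CPM, against 1940 CPM in the hypothalamus. NEFM, GAD2 and SLC32A1 had medians of 10.2, 0.657 and 0.106 CPM in the pituitary, against 508, 277 and 131 CPM. Each of the 8 had a lower median in the pituitary. The 5 measured of 6 astrocyte markers summed to 30.5 to 121 CPM in the pituitary, against 1980 to 3380 CPM in the hypothalamus, and the 4 measured of 8 oligodendrocyte markers to 50.6 to 206 CPM in the pituitary, against 3020 to 9890 CPM in the hypothalamus. The highest pituitary value of the endocrine sum and the lowest of the astrocyte and oligodendrocyte sums came from the library of low depth, without which they were 118000, 49.3 and 84.1 CPM. In whole tissue, fewer cells of a type and less RNA per cell cannot be told apart, and the part of cell makeup in the differences below was not tested.

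The first comparison asked how the machinery differs between pituitary and hypothalamus. Of the neuronal release core, SNAP25, STX1A, VAMP1, SYT1, CPLX1, UNC13A, RIMS1 and RAB3A were lower in the pituitary, while a smaller set, with RAB3B, UNC13B, SYT17, SYTL1, STXBP3 and VAMP3 in it, was higher. Summed over all 65 genes, the level was 2814 to 3152 CPM (median 3053) in the pituitary, against 5059 to 7647 CPM (median 6204) in the hypothalamus. Calls required an adjusted p (Benjamini-Hochberg, edgeR's quasi-likelihood test) no larger than 0.05 together with a fold of 1.5 or more. By this rule 12 of the 65 were higher in the pituitary and 39 were lower, and 14 were not called. Over all 16169 genes tested, 25.7% were called higher and 27.8% lower, against 18.5% and 60.0% of the 65. The median log2 fold change was -0.72 over the 65 genes and 0.05 over all genes tested. Without the RAB30 to RAB39 genes the counts were 9 higher and 33 lower of 54. In 30 genes every pituitary library lay below every hypothalamus library and in 8 every one lay above, against a background of 18.5% and 13.1% of all genes. When the pituitary library of low depth was left out, 49 of the 51 calls remained, and RAB34 and SNAP29 lost theirs by falling under the 1.5-fold limit.

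**Figure D1:**
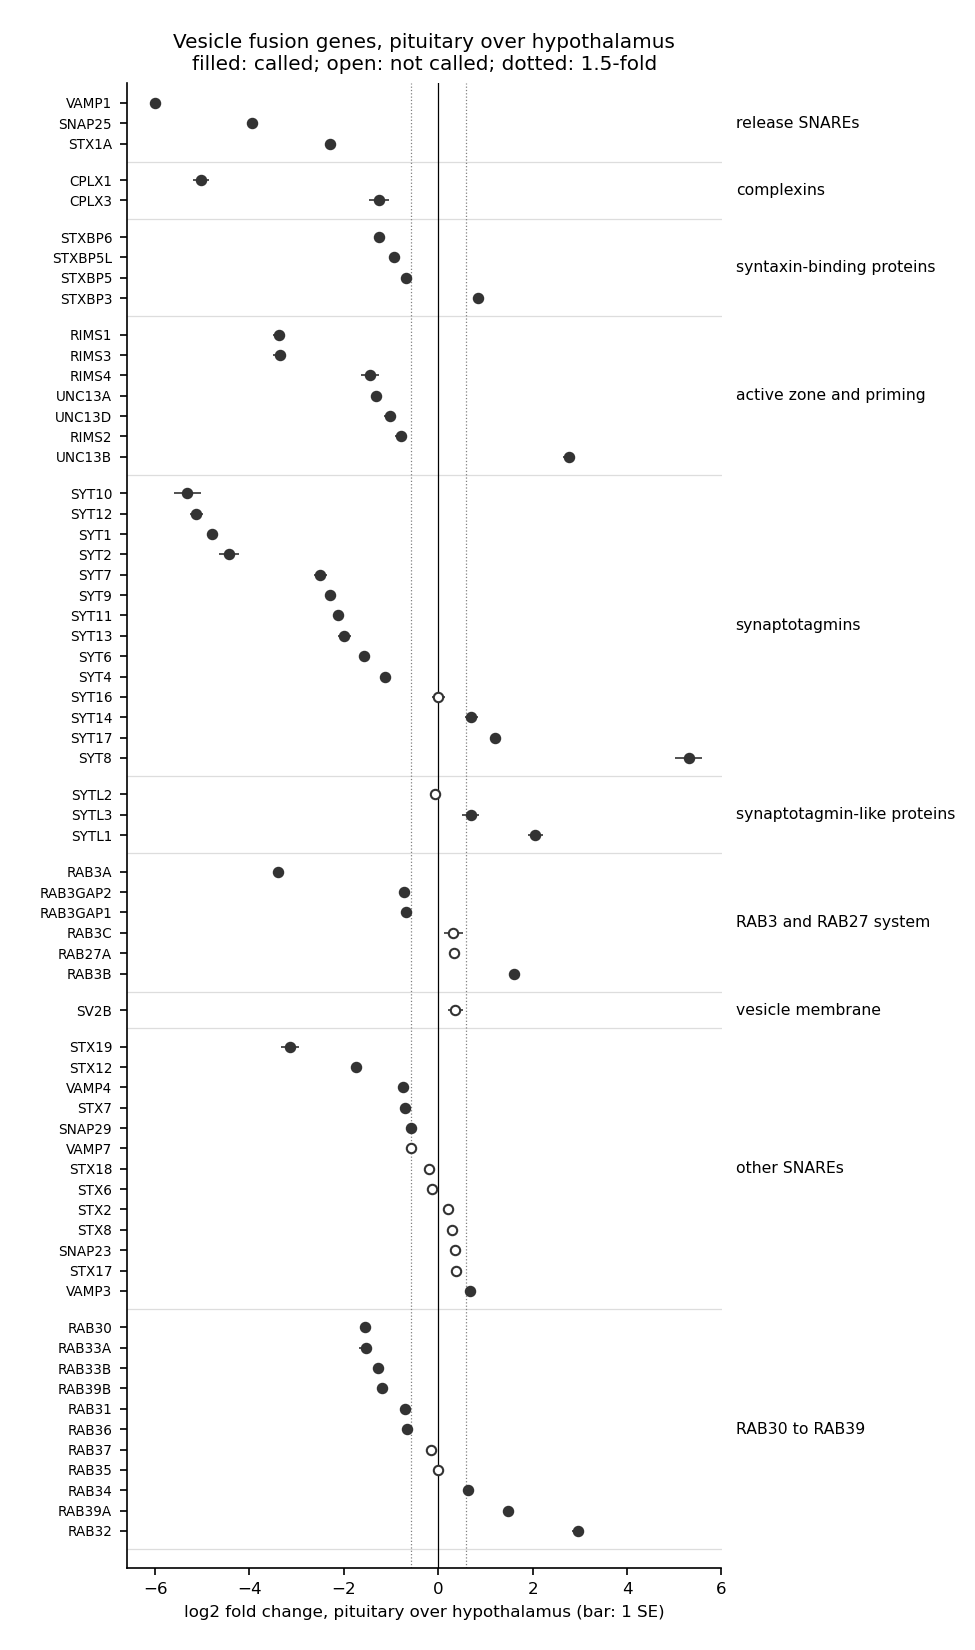
Log2 fold change of 64 of the 65 genes, pituitary over hypothalamus, with 1 SE, grouped by role. Filled points are called genes and dotted lines mark 1.5-fold. The release SNAREs and complexins all lie on the left, down to -6.00 for VAMP1, and the gene farthest to the right is SYT8 at 5.30.

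The 3 genes grouped here as release SNAREs were all lower in the pituitary. VAMP1 (chromosome 1, 76915077 to 76917933 in the deposited annotation, which names no genome build), a vesicle SNARE of neurons, had 1.17 to 3.07 CPM (median 1.85) in the pituitary, against 76.4 to 190 CPM (median 115) in the hypothalamus. It was 64.1-fold lower (log2 fold change -6.00, SE 0.112, edgeR adjusted p = 2.87e-26) and gave the smallest p of the 65 genes. SNAP25 (chromosome 3, 13649735 to 13715095), the plasma membrane SNARE that gives a pair of helices to the bundle, had 58.8 to 86.0 CPM (median 66.3) in the pituitary, against 672 to 1508 CPM (median 1010) in the hypothalamus, and was 15.4-fold lower (-3.95, SE 0.0819, adjusted p = 2.14e-25). STX1A, the partner syntaxin, had 10.5 to 24.5 CPM (median 20.8) in the pituitary, against 71.9 to 122 CPM (median 104) in the hypothalamus, and was 4.87-fold lower (-2.28, SE 0.0832, adjusted p = 4.00e-20). In none of these genes did the tissues overlap. Without the library of low depth the lowest pituitary value of STX1A was 18.9 CPM and its log2 fold change was -2.25.

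Both complexins were lower in the pituitary as well. CPLX1 (chromosome Z, 52264712 to 52364226), the main complexin of fast synapses, had 0 to 7.40 CPM (median 2.96) in the pituitary, against 37.7 to 170 CPM (median 123) in the hypothalamus, a 32.6-fold difference (log2 fold change -5.03, SE 0.17, adjusted p = 7.86e-21). The value of 0 came from the library of low depth, without which the pituitary range began at 1.61 CPM and the log2 fold change was -4.98. CPLX3, a complexin known from retinal ribbon synapses in mammals, was close to the filter on low counts in both tissues, at 0.219 to 0.956 CPM in the pituitary and 0.72 to 2.69 CPM in the hypothalamus, and its log2 fold change was -1.25.

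Among the syntaxin-binding proteins 4 of 5 were lower and 1 was higher. STXBP3, a Munc18 found in most cell types, was the higher one, with 26.0 to 44.8 CPM (median 31.6) in the pituitary, against 14.9 to 20.5 CPM (median 17.3) in the hypothalamus, and was 1.79-fold higher (0.84, SE 0.0596, adjusted p = 2.27e-13). Every pituitary library lay above every hypothalamus library. STXBP6, STXBP5L and STXBP5, the last also known as tomosyn and an inhibitor of SNARE assembly, had log2 fold changes of -1.25, -0.94 and -0.69, all called.

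The active zone and priming genes followed the same split, with 6 of 7 lower and UNC13B higher. RIMS1, a scaffold of the active zone, had 1.17 to 8.99 CPM (median 7.43) in the pituitary, against 51.3 to 102 CPM (median 76.0) in the hypothalamus, and was 10.4-fold lower (-3.38, SE 0.127, adjusted p = 8.50e-20). The value of 1.17 CPM came from the library of low depth, without which the pituitary range of RIMS1 began at 5.57 CPM and the log2 fold change was -3.33. UNC13A, the main Munc13 of brain synapses, had 26.1 to 46.9 CPM (median 37.6) in the pituitary, against 59.8 to 115 CPM (median 97.3) in the hypothalamus, and was 2.51-fold lower (-1.33, SE 0.0759, adjusted p = 1.53e-15). UNC13B (chromosome Z, 8647604 to 8854766), its relative with a wider tissue range, had 64.0 to 260 CPM (median 175) in the pituitary, against 20.7 to 29.9 CPM (median 24.7) in the hypothalamus, and was 6.77-fold higher (2.76, SE 0.113, adjusted p = 6.38e-19). The lowest UNC13B value in the pituitary belonged to the library of low depth, and without it the range was 133 to 260 CPM. RIMS3, RIMS4, UNC13D and RIMS2 were called lower at -3.36, -1.45, -1.02 and -0.79 on the log2 scale.

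Of the 14 synaptotagmins, 10 were lower in the pituitary, 3 were higher and SYT16 was not called. SYT1 (chromosome 1, 39230582 to 39452545), the calcium sensor of fast transmitter release, had 7.97 to 30.2 CPM (median 13.8) in the pituitary, against 271 to 526 CPM (median 428) in the hypothalamus, and was 27.8-fold lower (-4.80, SE 0.114, adjusted p = 3.44e-24). SYT10, a sensor for growth factor secretion in the mouse olfactory bulb, had 0 to 3.88 CPM (median 0.86) in the pituitary, against 33.2 to 64.3 CPM (median 49.5) in the hypothalamus (-5.32, SE 0.279, adjusted p = 2.11e-16). SYT12 had 0.928 to 2.45 CPM in the pituitary, against 36.4 to 80.8 CPM in the hypothalamus (-5.13, SE 0.137, adjusted p = 3.95e-23). SYT2, a close relative of SYT1 with the same task, had 0.527 to 2.28 CPM in the pituitary, against 10.8 to 64.7 CPM in the hypothalamus (-4.44, SE 0.212, adjusted p = 2.33e-17). These 4 genes had fewer CPM in every pituitary library than in any hypothalamus library. SYT7, SYT9, SYT11, SYT13, SYT6 and SYT4 were called lower too, with log2 fold changes between -2.50 for SYT7 and -1.13 for SYT4.

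SYT17 was the best measured of the synaptotagmins that were higher in the pituitary, with 65.7 to 141 CPM (median 90.3), against 28.8 to 48.7 CPM (median 43.8) in the hypothalamus, and a fold of 2.30 (1.20, SE 0.0774, adjusted p = 2.24e-14). SYT8 (chromosome 5, 14108059 to 14112076) had the largest log2 fold change at 5.30 (SE 0.291, adjusted p = 5.55e-16), yet it rests on few reads. It had 13 to 61 counts per pituitary library, or 0.836 to 3.75 CPM, against 0 to 3 counts per hypothalamus library, or 0 to 0.198 CPM. SYT14 was called higher at 0.70 with overlapping tissues. The synaptotagmin-like proteins, which bind RAB27 on granules, gave 2 of 3 genes higher and none lower. SYTL1 had 7.39 to 34.5 CPM (median 12.8) in the pituitary, against 1.62 to 4.95 CPM (median 3.28) in the hypothalamus (2.06, SE 0.163, adjusted p = 2.41e-12). The 34.5 CPM of SYTL1 came from the library of low depth, without which the highest pituitary value was 19.4 CPM and the log2 fold change 1.94. SYTL3 was called at 0.69 with overlap, and SYTL2 stood at -0.06 and was not called.

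RAB3 proteins ride on vesicles and recruit the RIMs. RAB3A, the form of synaptic vesicles, had 20.4 to 37.2 CPM (median 33.5) in the pituitary, against 217 to 395 CPM (median 364) in the hypothalamus, and was 10.6-fold lower (-3.40, SE 0.0763, adjusted p = 1.01e-24). RAB3B had 385 to 1030 CPM (median 547) in the pituitary, against 129 to 250 CPM (median 181) in the hypothalamus, and was 3.05-fold higher (1.61, SE 0.0953, adjusted p = 3.34e-15). The value of 1030 CPM came from the library of low depth, and without it RAB3B ran between 385 and 603 CPM in the pituitary with a log2 fold change of 1.53. Both subunits of the RAB3 GTPase-activating complex, RAB3GAP1 and RAB3GAP2, were lower at -0.69 and -0.72. RAB3C and RAB27A were not called, at 0.32 and 0.33, and neither was SV2B, a membrane protein of synaptic vesicles and granules, at 0.36.

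**Figure D2:**
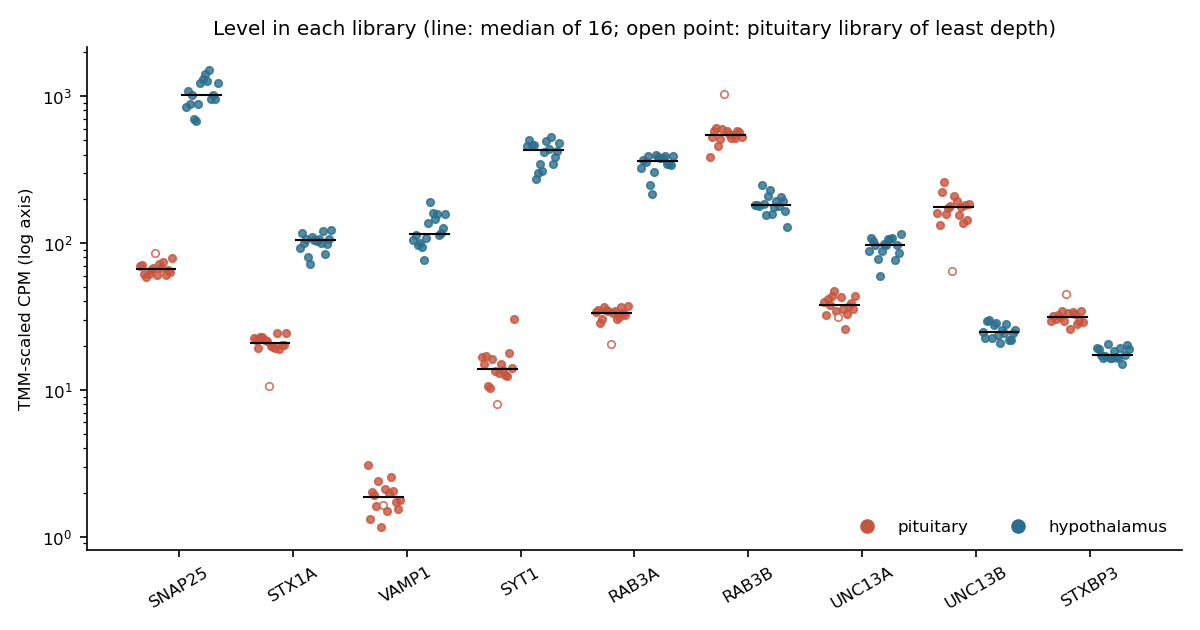
TMM-scaled CPM on a log axis of 9 release genes in each of the 16 pituitary and 16 hypothalamus libraries, with the median as a line. The pituitary points lie below the hypothalamus points for SNAP25, STX1A, VAMP1, SYT1, RAB3A and UNC13A and above them for RAB3B, UNC13B and STXBP3, and the open point is the pituitary library of 6231478 counts.

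The other SNAREs moved less. Of these 13 genes, 5 were called lower, 1 was called higher and 7 were not called. VAMP3, the vesicle SNARE of general exocytosis and recycling, had 77.3 to 154 CPM (median 81.9) in the pituitary, against 48.0 to 64.9 CPM (median 53.0) in the hypothalamus, and was 1.60-fold higher (0.68, SE 0.0662, adjusted p = 2.06e-10). The 154 CPM of VAMP3 came from the library of low depth, without which the highest pituitary value was 93.0 CPM and the log2 fold change was 0.61, close to the 1.5-fold limit. STX12, an endosomal syntaxin, was 3.37-fold lower (-1.75, SE 0.0401), and STX19, at 0.13 to 0.982 CPM in the pituitary against 2.38 to 5.86 CPM in the hypothalamus, was 8.82-fold lower (-3.14, SE 0.183). VAMP4, STX7 and SNAP29 were called lower at -0.75, -0.71 and -0.59, the last of them at the 1.5-fold limit. VAMP7 lay just outside that limit at -0.57 with no overlap between the tissues. STX6, STX18, STX2, STX8, SNAP23 and STX17, most of which serve the Golgi, endosomes, the endoplasmic reticulum or autophagy, lay between -0.20 and 0.37 and were not called.

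Among the RAB30 to RAB39 genes 3 were higher, 6 were lower and RAB35 and RAB37 were not called. RAB32, a GTPase of lysosome-related organelles, had 34.5 to 89.9 CPM (median 55.1) in the pituitary, against 3.98 to 10.8 CPM (median 7.77) in the hypothalamus, and was 7.74-fold higher (2.95, SE 0.126, adjusted p = 1.63e-18). RAB39A had 5.63 to 15.2 CPM in the pituitary, against 3.15 to 6.27 CPM in the hypothalamus (1.47, SE 0.104, adjusted p = 1.96e-13), and the tissues overlapped only through the library of low depth, without which the pituitary range began at 8.60 CPM. RAB34 was called at 0.63 and dropped to 0.55 without that library. The lower ones were RAB30 at -1.55, RAB33A at -1.54, RAB33B at -1.27, RAB39B at -1.19, RAB31 at -0.70 and RAB36 at -0.67.

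Ratios of counts within a library show the shift between relatives without any scaling between libraries, and the 7 pairs were chosen after the values were seen. RAB3B had 11.4 to 50.3 counts (median 17.2) per count of RAB3A in the pituitary, against 0.332 to 0.738 (median 0.531) in the hypothalamus. UNC13B had 2.05 to 6.83 counts per count of UNC13A in the pituitary, against 0.208 to 0.461 in the hypothalamus. For VAMP3 per VAMP1 the ratio was 25.4 to 93.6 in the pituitary and 0.29 to 0.802 in the hypothalamus. In all 7 pairs the pituitary and hypothalamus ranges did not overlap. The remaining pairs were SNAP23 per SNAP25, STX2 per STX1A, RIMS2 per RIMS1 and SYT4 per SYT1. In these the first gene was not called higher in the pituitary. RIMS2 and SYT4 were called lower there, though by less than RIMS1 and SYT1. The ratios carry the unequal lengths of the genes, so a ratio above 1 does not say that the first gene made more RNA. Only the difference between the tissues can be read from them.

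**Figure D3:**
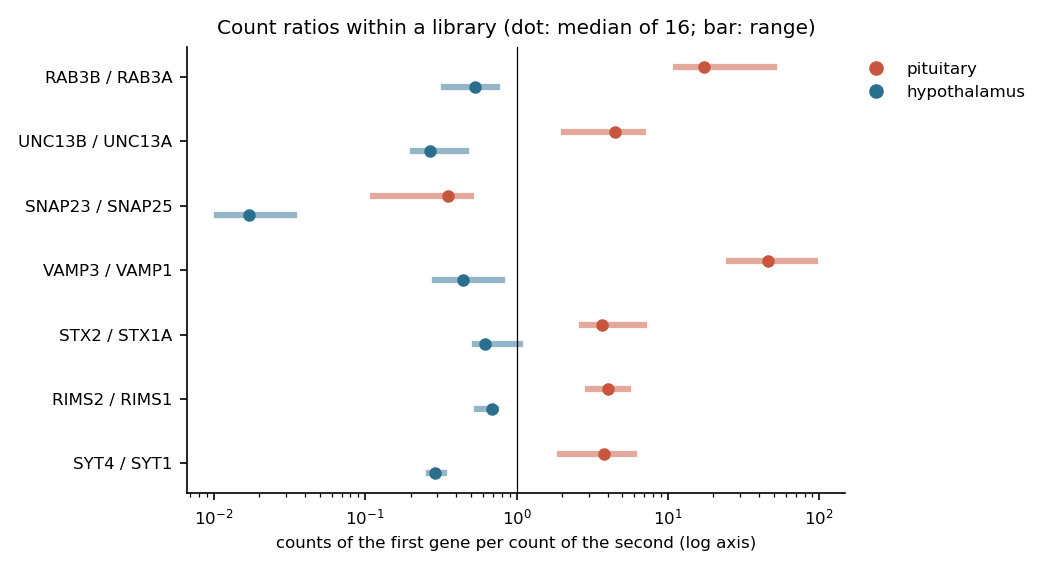
Counts of the first gene per count of the second within a library, on a log axis, for 7 pairs of relatives. Dots are medians and bars the range of 16 libraries per tissue, and the pituitary range lies to the right of the hypothalamus range in every pair, as for RAB3B per RAB3A at 11.4 to 50.3 against 0.332 to 0.738.

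Other exocytosis genes outside the group, from a list of 55 of which 44 had a symbol, gave 3 higher and 25 lower in the pituitary. Over all genes tested, 25.7% were called higher and 27.8% lower. The median log2 fold change was -0.77 over the 44 genes and 0.05 over all genes. The 3 higher were SYNGR2 (1.61), a synaptogyrin found outside neurons, RPH3AL (1.41), a RAB3 effector of endocrine cells also called Noc2, and PPFIA1 (0.82), a liprin. RPH3A, the neuronal relative of RPH3AL, had 0.469 to 4.27 CPM in the pituitary, against 52.3 to 129 CPM in the hypothalamus (-5.24, SE 0.144). The largest difference on the list was in SLC32A1, which loads GABA and glycine into vesicles and also stands among the neuron markers, at -9.12 (SE 0.289).

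The second comparison asked what changed between 6 and 3 weeks of age. In the pituitary none of the 65 genes was called by edgeR, and DESeq2 called 0 as well, beside 33 genes higher and 131 lower over all genes. Over all 15280 genes tested there, none was called higher (0%) and 4 were called lower, which is 0.0262%. At an unadjusted p under 0.05 stood 8 of the 65 (6 higher and 2 lower, 12.3%), against 10.6% of all genes (4.21% higher and 6.42% lower). The smallest p belonged to SYTL2, which had 15.2 to 24.0 CPM (median 21.3) at 6 weeks, against 10.1 to 16.8 CPM (median 14.4) at 3 weeks (0.51, SE 0.115, edgeR adjusted p = 0.102), and stood at 0.45 (adjusted p = 0.0522) without the library of low depth. SYT2 followed with 0.84 (SE 0.292, adjusted p = 0.318).

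SYT4, a synaptotagmin of dense-core granules that does not sense calcium in the usual way, depended on the library of low depth. In the pituitary it had 48.3, 56.9, 47.0 and 50.1 CPM in LGR and 37.8, 51.0, 43.8 and 36.0 CPM in HGR birds at 6 weeks, against 60.6, 67.5, 80.1 and 30.7 CPM in LGR and 62.2, 102, 63.5 and 58.8 CPM in HGR birds at 3 weeks. The value of 30.7 CPM is that of the low-depth library, and every other 3-week bird lay above every 6-week bird. With all libraries the log2 fold change was -0.51 (SE 0.166, adjusted p = 0.284). Without that library it was -0.61 (SE 0.121, adjusted p = 0.0497), which is past the threshold by a narrow margin. That fit called 7 genes higher and 19 lower over all 15453 genes tested.

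In the hypothalamus CPLX1 was the member called at 6 over 3 weeks, and it was higher. At 6 weeks CPLX1 had 120, 135, 140 and 129 CPM in LGR and 126, 143, 141 and 170 CPM in HGR birds. At 3 weeks it had 53.2, 37.7, 52.4 and 37.8 CPM in LGR and 72.4, 92.5, 109 and 156 CPM in HGR birds. The ages overlapped through 1 HGR bird of 3 weeks with 156 CPM, while the LGR birds of both ages lay far apart. CPLX1 was 1.98-fold higher at 6 weeks (0.98, SE 0.133, edgeR adjusted p = 0.00329), and the call held in every alternative fit, with adjusted p between 1.49e-09 and 0.0106. Of the 64 members tested, 1 was called higher (1.56%) and 0 lower, against 0.26% and 0.363% of all 15414 genes.

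By the adjusted p alone, with no limit on the fold, 6 members were higher and 0 were lower, against 1.21% and 1.1% of all genes. Besides CPLX1 they were SYTL2 (0.43, SE 0.0745, adjusted p = 0.0117), SYT1 (0.42, SE 0.074, adjusted p = 0.014), SYT4 (0.42, SE 0.078, adjusted p = 0.0173), RAB3GAP2 (0.23, SE 0.045, adjusted p = 0.0228) and RAB3GAP1 (0.22, SE 0.0493, adjusted p = 0.0407). Over the alternative fits with edgeR or DESeq2 the highest adjusted p was 0.0625 for RAB3GAP2 and 0.0902 for RAB3GAP1, past the threshold. For SYTL2, SYT1 and SYT4 it was 0.0353, 0.042 and 0.05. SYT1 had 415 to 526 CPM (median 466) at 6 weeks, against 271 to 482 CPM (median 344) at 3 weeks. SYT4 had 123 to 157 CPM (median 140) at 6 weeks, against 85.8 to 137 CPM (median 95.9) at 3 weeks. All of these ranges overlapped between the ages, as did those of all 64 members, while 0.143% of all genes lay wholly higher and 0.182% wholly lower. Leaving out the HGR bird of 3 weeks that had 156 CPM of CPLX1 brought RAB3C, SV2B and RIMS4 past both limits, at 0.83, 0.61 and 0.59, so that 4 members were then called. Calls over all genes grew as well in that fit, to 207 higher and 147 lower of 15550, against 40 higher and 56 lower of 15414 with all libraries. RAB3C was also called without replicate 3 of the LGR birds at 3 weeks (0.83, adjusted p = 0.0342, with 76 genes higher and 74 lower over all). SYTL1 was called without replicate 4 of that group (0.66, adjusted p = 0.0482, with 20 higher and 41 lower over all). With all libraries DESeq2 called RAB3C beside CPLX1 (0.70, DESeq2 adjusted p = 0.0128), among 95 genes higher and 130 lower over all.

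At an unadjusted p under 0.05 stood 29 of the 64 members (25 higher and 4 lower, 45.3%), against 24.2% of all genes (12.8% higher and 11.4% lower). The fold change was positive in 45 members and negative in 19, with a median of 0.14 on the log2 scale against -0.01 over all genes. By role, the fold change was positive in all 6 genes of the RAB3 and RAB27 system and all 5 syntaxin-binding proteins. It was positive in 11 of 13 synaptotagmins and 6 of 7 active zone and priming genes, and negative in 9 of the 13 other SNAREs. Of the 44 other exocytosis genes, edgeR called 0, 16 had an unadjusted p under 0.05 and 2, DNAJC5 (0.44) and SLC32A1 (0.31), passed the adjusted p alone, both higher at 6 weeks.

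Levels of cell type markers at the ages were as follows. The neuron markers summed to 3600 to 5760 CPM (median 4290) at 6 weeks, against 2990 to 4970 CPM (median 4270) at 3 weeks. The 5 astrocyte markers summed to 3070 to 3380 CPM at 6 weeks, against 1980 to 3160 CPM at 3 weeks, and HBAD, the one measured red blood cell gene, had 6.03 to 33.3 CPM at 6 weeks, against 43.6 to 174 CPM at 3 weeks. The neuron and astrocyte sums overlapped between the ages and the HBAD values did not. Within the LGR birds, where the ages parted in CPLX1, the sum of the 8 neuron markers overlapped between the ages. It was 3600 to 4210 CPM at 6 weeks, against 2990 to 4970 CPM at 3 weeks. The single markers GAD2 and SLC32A1 did part in these birds. GAD2 had 322 to 346 CPM at 6 weeks, against 151 to 235 CPM at 3 weeks. SLC32A1 had 140 to 156 CPM at 6 weeks, against 73.6 to 113 CPM at 3 weeks. The part of the cell type markers in the higher CPLX1 was not tested.

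Whether the age difference itself differed between the tissues was tested as an interaction over all 32 libraries. In edgeR no member passed the adjusted p of 0.05, against 1 of 16169 genes or 0.00618%. At an unadjusted p under 0.05 stood 8 of the 65, against 6.07% of all genes. SYT4 came nearest, with -0.51 in the pituitary and 0.42 in the hypothalamus and a difference of -0.93 (SE 0.188, adjusted p = 0.0695). It passed without the pituitary library of low depth (-1.03, SE 0.149, adjusted p = 0.00339) and without replicate 3 of the LGR hypothalamus at 6 weeks (-0.97, adjusted p = 0.0315), and DESeq2 with all libraries called this 1 member (-0.93, adjusted p = 0.00181). Over all genes, the fit without the low-depth library passed 7 higher and 10 lower of 16324, that without the hypothalamus library 16 higher and 5 lower of 16331, and DESeq2 passed 26 higher and 15 lower of 16169.

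**Figure D4:**
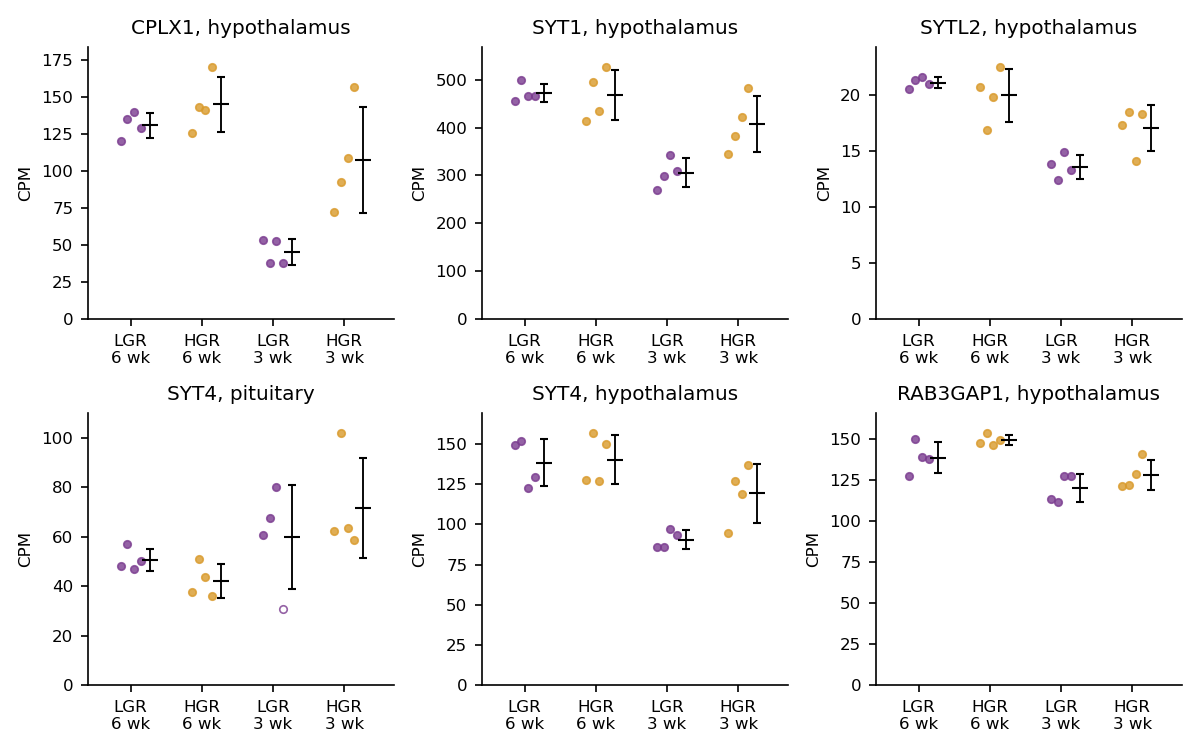
TMM-scaled CPM in each bird by growth group and age, with mean and SD of 4 birds beside the points. CPLX1 in the hypothalamus lies between 120 and 170 CPM at 6 weeks and lowest in LGR birds of 3 weeks, and SYT4 lies lower at 6 weeks in the pituitary, apart from the open point of the low-depth library, and higher at 6 weeks in the hypothalamus.

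The third comparison, which the study was built on, set LGR against HGR birds of the same age. The study removed hypothalamus samples of both ages from its own test because they clustered apart. Its text does not name their libraries, and all libraries were kept here. In the hypothalamus at 6 weeks VAMP1 was called lower in LGR birds. It had 104, 113, 96.8 and 99.2 CPM in LGR birds, against 190, 159, 145 and 157 CPM in HGR birds, and the groups did not overlap. The fold was 1.57 lower (-0.65, SE 0.0852, edgeR adjusted p = 0.0261). SNAP25 had 848, 1085, 880 and 1017 CPM in LGR birds, against 1300, 1411, 1273 and 1508 CPM in HGR birds, again without overlap. At 1.43-fold it passed the adjusted p but not the fold limit (-0.52, SE 0.0892, adjusted p = 0.0414). Over the alternative fits with edgeR or DESeq2 the adjusted p of SNAP25 ran from 1.66e-06 to 0.126, so this pass was not stable.

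The call of VAMP1 was not stable. It was lost when any of 6 of the 8 birds was left out. Without LGR replicate 1, 3 or 4 its adjusted p was 0.0775, 0.0809 and 0.0597, and without HGR replicate 3 or 4 it was 0.068 and 0.0703. Without HGR replicate 1 the adjusted p was 0.0292, but the log2 fold change of -0.57 fell under the 1.5-fold limit. Calls over all genes fell in these fits too, from 3 higher and 17 lower with all birds. They were 0 and 0 without LGR replicate 1, HGR replicate 3 or HGR replicate 4. Without LGR replicate 3 they were 0 and 1, without LGR replicate 4 1 and 0, and without HGR replicate 1 1 and 14. The log2 fold change of VAMP1 lay between -0.71 and -0.57 in every alternative fit.

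Of the 64 members tested in the hypothalamus at 6 weeks, 1 was called lower (1.56%) and 0 higher, against 0.114% and 0.0201% of all 14944 genes. At an unadjusted p under 0.05 stood 13 members (2 higher and 11 lower, 20.3%), close to the 18.6% of all genes (9.46% higher and 9.11% lower). By the adjusted p alone 2 members were lower and 0 higher, against 0.455% and 0.114% of all genes. In 9 members every LGR bird lay below every HGR bird and in 1 above, against 6.12% and 5.11% of all genes. Among the 9, SYT2 had 11.4, 29.6, 20.01 and 11.5 CPM in LGR birds, against 64.7, 35.9, 33.8 and 36.5 CPM in HGR birds (-1.24, SE 0.326, adjusted p = 0.103). The SNAREs STX7, STX18 and STX12 showed the same order with small changes between -0.24 and -0.14, all short of the threshold.

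Markers of neurons and of the neighbouring thalamus moved with VAMP1 and SNAP25 in these 8 birds. The 8 neuron markers summed to 3600 to 4210 CPM in LGR birds, against 4370 to 5760 CPM in HGR birds, without overlap. Single neuron markers did not all go one way. NEFM, a neurofilament of large axons, had 360 to 535 CPM in LGR birds, against 556 to 1260 CPM in HGR birds, whereas GAD2, which makes GABA, had 322 to 346 CPM in LGR birds, against 264 to 303 CPM in HGR birds. Of the 8 thalamus genes, TCF7L2, GBX2, CALB2 and NTNG1 were lower in LGR birds without overlap and the other 4 overlapped. TCF7L2 had 13.7 to 16.7 CPM, against 31.5 to 134 CPM in HGR birds, and GBX2 had 2.71 to 5.63 CPM, against 11.7 to 33.0 CPM in HGR birds. The list summed to 420 to 513 CPM in LGR birds, against 662 to 854 CPM in HGR birds. CALB2 was the largest part of this sum, with a median of 484 CPM over the 16 hypothalamus libraries, against 628 CPM for the list. In the pituitary the list summed to 606 to 1370 CPM, so its sum does not mark the thalamus alone. The part of the neuron and thalamus genes in the lower VAMP1 and SNAP25 was not tested.

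**Figure D5:**
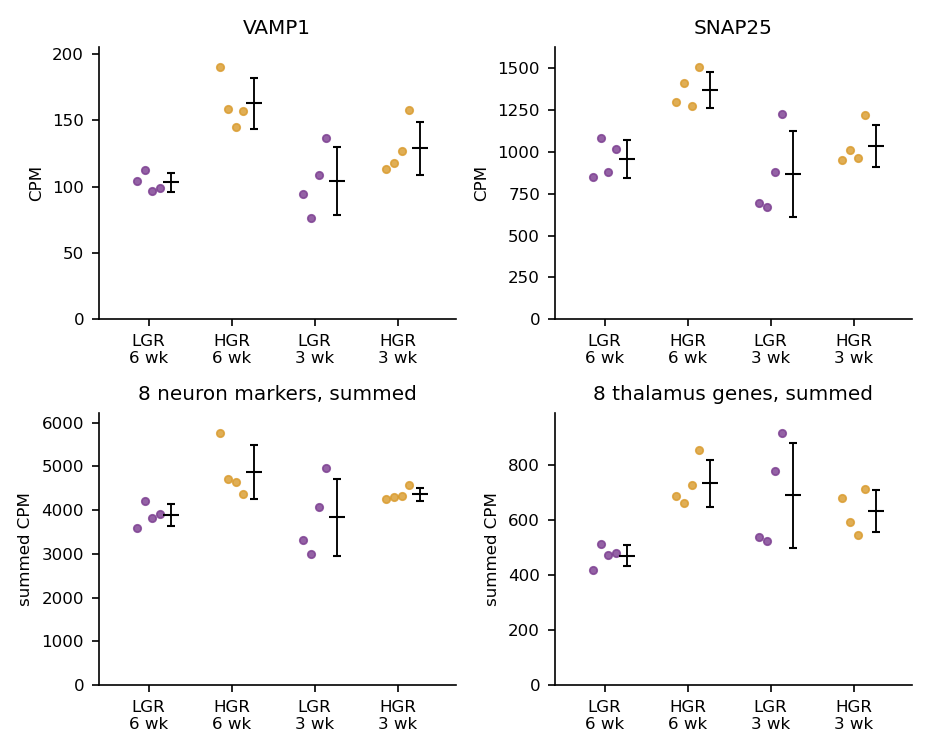
VAMP1 and SNAP25 (CPM) and the summed CPM of 8 neuron markers and 8 thalamus genes in the hypothalamus of each bird, with mean and SD of 4 birds beside the points. CALB2, which the pituitary also holds, is the largest part of the thalamus sum. At 6 weeks the LGR birds lie below the HGR birds in all 4 panels, with VAMP1 at 96.8 to 113 CPM against 145 to 190 CPM, while at 3 weeks the groups overlap.

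In the hypothalamus at 3 weeks no member was called by edgeR, and neither was any of the 14980 genes tested (0%). At an unadjusted p under 0.05 stood 8 of the 64 members (1 higher and 7 lower, 12.5%), against 5.81% of all genes (3.57% higher and 2.24% lower). CPLX1 had the smallest p, with 53.2, 37.7, 52.4 and 37.8 CPM in LGR birds, against 72.4, 92.5, 109 and 156 CPM in HGR birds. The groups did not overlap and the log2 fold change was -1.25 (SE 0.226, edgeR adjusted p = 0.317). DESeq2 called this 1 member, with the same log2 fold change and an adjusted p of 2.25e-04, among 10 genes higher and 11 lower over all 14980. The study, which used DESeq2 with samples removed, did report differing genes at this age. It lists CPLX1 among them under hormone levels, with no direction in that list. SYT1 was next among the lower genes with 271, 298, 343 and 310 CPM in LGR birds, against 344, 383, 421 and 482 CPM in HGR birds (-0.42, SE 0.125, adjusted p = 0.774), and SYT10 the 1 higher gene with 64.3, 57.8, 57.1 and 53.2 CPM in LGR birds, against 48.0, 44.9, 49.2 and 39.05 CPM in HGR birds (0.36, SE 0.103, adjusted p = 0.774). In 4 members every LGR bird lay below every HGR bird and in 2 above, against 1.34% and 1.79% of all genes. Of the 8 neuron markers, SLC32A1 and ELAVL4 were lower in LGR birds without overlap, SLC32A1 with 73.6 to 113 CPM, against 126 to 143 CPM in HGR birds, and ELAVL4 with 192 to 218 CPM, against 222 to 311 CPM in HGR birds. The neuron markers summed to 2990 to 4970 CPM in LGR birds, against 4250 to 4580 CPM in HGR birds at this age. The pituitary endocrine markers summed to 357 to 960 CPM in LGR birds, against 74.1 to 392 CPM in HGR birds. Of these, POMC, which some hypothalamic neurons also make, reached at most 326 CPM over all hypothalamus libraries, and CGA reached 567 CPM. The part of the neuron and endocrine markers in the CPLX1 values was not tested.

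The CPLX1 values of the hypothalamus were thus lowest in the LGR birds of 3 weeks, below every other bird. HGR birds of 3 weeks with 72.4, 92.5 and 109 CPM also lay below every 6-week bird, the lowest of which had 120 CPM. Whether the growth difference changed with age was tested as an interaction, which gave 1.10 for CPLX1 (SE 0.264, unadjusted p = 7.22e-04, edgeR adjusted p = 0.498). At 6 weeks the mean of CPLX1 was 131 ± 8.44 CPM over the LGR birds, against 145 ± 18.4 CPM over the HGR birds (SD, n = 4 each). In edgeR no member passed this interaction in either tissue, against 0.00649% of all genes in the hypothalamus and 0% in the pituitary, and 5 members in the hypothalamus (7.81%, against 5.53% of all genes) and 2 in the pituitary (3.08%, against 4.48% of all genes) had an unadjusted p under 0.05. DESeq2 passed CPLX1 in the hypothalamus (1.10, adjusted p = 0.042), among 18 genes higher and 5 lower, and 0 members in the pituitary, where it passed 26 genes higher and 1 lower.

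The pituitary showed no growth difference in these genes at either age by the same rule. EdgeR called no member of 64 and none of the 14826 genes tested at 6 weeks or of the 14730 at 3 weeks (0% at both ages). At 6 weeks 4 members had an unadjusted p under 0.05 (6.25%, against 6.77% of all genes). UNC13D, the Munc13 of cytotoxic granules, had 9.44, 7.83, 8.02 and 5.93 CPM in LGR birds, against 3.22, 5.08, 3.93 and 5.07 CPM in HGR birds (0.86, SE 0.202, edgeR adjusted p = 0.574), without overlap, and was the 1 member that DESeq2 called there (0.87, adjusted p = 0.0381), among 33 genes higher and 12 lower. CPLX1 had 3.73, 1.98, 3.13 and 2.79 CPM in LGR birds, against 3.65, 4.84, 7.40 and 3.36 CPM in HGR birds (-0.71, SE 0.302, adjusted p = 0.72), and SYT4 was at 0.27 (SE 0.116, adjusted p = 0.72). At 3 weeks only SYT10 had an unadjusted p under 0.05 (1.56%, against 2.62% of all genes), with 1.62, 1.56, 1.296 and 3.28 CPM in LGR birds, against 0.825, 0.386, 0.772 and 0.389 CPM in HGR birds (1.63, SE 0.42, adjusted p = 0.963). The value of 3.28 CPM is that of the low-depth library, and without it the log2 fold change was 1.33 (SE 0.362, adjusted p = 0.8). SYT8 and SYT1 followed at 0.78 and -0.61, both with an adjusted p of 0.963. Wholly above or below stood 1 member and 0 members at each age, against 1.63% and 2.21% of all genes at 6 weeks and 1.02% and 1.45% at 3 weeks. DESeq2 called 0 members at 3 weeks, beside 3 genes higher and 3 lower, and edgeR without the library of low depth called 0 too.

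The other exocytosis genes gave no edgeR call between LGR and HGR birds in either tissue at either age. At an unadjusted p under 0.05 stood 5 of 43 in the pituitary at 6 weeks (6.77% of all genes) and 1 of 43 at 3 weeks (2.62% of all genes). In the hypothalamus there were 7 of 44 at 6 weeks (18.6% of all genes) and 6 of 44 at 3 weeks (5.81% of all genes). Between the ages in the pituitary edgeR called 0 of these 43 genes, and 4 had an unadjusted p under 0.05, against 10.6% of all genes.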

How the data were processed

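RNA of the pituitary and hypothalamus of the same 16 birds was sequenced with a TruSeq RNA v2 kit, which selects poly(A) RNA and does not mark strand, so reads of overlapping or antisense genes cannot be told apart. The authors aligned and counted the reads with RSEM and Bowtie2 after CASAVA 1.8.2 and FastQC, and their deposited table holds raw counts (whole numbers, without normalization) for each Ensembl gene. The study's methods, written for the hypothalamus, name an Ensembl chicken assembly and a version of RSEM, while the deposited tables name no build, so coordinates are given without one. Gene symbols and coordinates came from the deposited result tables, where coordinates are in base pairs, a unit other than a measurement. The remaining columns of those tables, means, fold changes and p-values of the authors' own comparisons, were not used.

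Counts were tested with edgeR 4.0.16 in R 4.3.3 (TMM scaling, filterByExpr at its default limits of 10 counts and 15 in total, quasi-likelihood F test, Benjamini-Hochberg adjustment over all genes tested). Calls needed an adjusted p up to 0.05 and a 1.5-fold change or more, interactions the adjusted p alone. The SE is the log2 fold change divided by the square root of F. The tissue contrast used all 32 libraries in 8 groups, age used the 16 libraries of a tissue, and growth rate the 8 of a tissue and age. The scripts were tested on simulated data.

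The members, roles and lists were chosen with earlier results of these data known. Full values were given for the neuronal release core, for the 8 called members with the largest change in each direction between tissues, and for the called members, or the 3 with the smallest p, in the other comparisons. Both tissues of a bird come from the same animal: their deviations from the group means correlated at 0.0202 to 0.572 (median 0.251, over 0.1 in 14 of 16 birds). A fit with the bird as a block made the same 51 tissue calls. Alternatives were other scaling, no filter, DESeq2 1.42.0, the adjusted p alone, blocks, and leaving out each library. Sequences of the genes were not used here, and the values of 1 member are not reported here.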

Additional observations from a re-analysis of the deposited data

Results flagged for a closer look

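In 24 members, each group of 4 libraries was searched for 1 value far from the other 3 by Dixon's test, which chance meets in about 1 of 20 groups, and 17 of 192 groups were marked. Of the 17, 7 lie in the pituitary library of low depth, replicate 4 of the LGR birds at 3 weeks. There RAB3A had 20.4 CPM (the other 3 between 34.3 and 36.6), RAB3GAP1 had 44.8 CPM (81.9 to 87.5), RAB3GAP2 had 25.8 CPM (86.8 to 93.8) and RIMS1 had 1.17 CPM (7.72 to 8.99). STX1A had 10.6 CPM (21.6 to 23.0) and UNC13B had 64.0 CPM (158 to 177) in it, while SYT10 was high at 3.28 CPM (1.3 to 1.62). Outside that library the share of marked groups was near that given by chance, so the marks listed next are only values to check.

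In the other pituitary libraries STX1A stood out with 24.5 CPM in HGR replicate 4 at 6 weeks (19.4 to 20 in the others of its group), STXBP3 with 26.0 CPM in HGR replicate 2 at 6 weeks (33.0 to 33.9) and SYT10 with 3.84 CPM in LGR replicate 1 at 6 weeks (0.658 to 1.07). At 3 weeks SYT4 stood out with 102 CPM in HGR replicate 2 (58.8 to 63.5).

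In the hypothalamus at 6 weeks these were RAB3B with 250 CPM in LGR replicate 4 (178 to 182) and SYT2 with 64.7 CPM in HGR replicate 1 (33.8 to 36.5). SYT8 was marked too, with 0.0623 CPM in HGR replicate 1, where the others had 0. That SYT8 value is 1 count, so 1 read set the mark. At 3 weeks the marked values were RAB3A with 389 CPM in HGR replicate 4 (342 to 346) and STXBP3 with 20.5 CPM in LGR replicate 2 (16.4 to 17.0). SYTL1 was marked with 3.32 CPM in HGR replicate 2 (2.44 to 2.55).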

How the results depend on the processing

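Among the members chosen for full values, no log2 fold change reversed its direction under any alternative run of the comparison it was chosen for. The signs of other members were compared only for the calls between the tissues. Upper-quartile scaling moved the median of all genes between the tissues by over 0.1 on the log2 scale to 0.16 and lost the calls of RAB36, RAB3GAP1, STXBP5 and SNAP29, all lower, and no call changed sign. Between the tissues 11 to 18 members were called higher and 35 to 42 lower, and when 1 library was left out 11 to 12 and 38 to 40. The upper ends of 18 and 42 came from the adjusted p alone, which passed 6740 genes higher and 6252 lower of all 16169. With the adjusted p alone, 6 members were higher at 6 weeks in the hypothalamus and 2 were lower in LGR birds of 6 weeks. DESeq2 gave 1 member (SYT4) in the tissue by age interaction and 2 higher (CPLX1 and RAB3C) at 6 weeks in the hypothalamus. It gave 1 (CPLX1) in the growth by age interaction of the hypothalamus and 1 higher (UNC13D) in LGR pituitaries of 6 weeks. In LGR hypothalami it gave 1 lower at 3 weeks and 3 lower (VAMP1, SYT2 and RAB37) at 6 weeks. In that comparison at 6 weeks DESeq2 called 119 genes higher and 50 lower over all 14944. At 6 over 3 weeks in the hypothalamus it called 95 higher and 130 lower of 15414. Leaving out each replicate in turn gave 0 to 1 members in the tissue by age interaction, 0 to 1 lower at 6 weeks in the pituitary, 1 to 4 higher at 6 weeks in the hypothalamus and 0 to 1 lower in LGR hypothalami of 6 weeks. With the replicate number as a block, 0 were lower there (VAMP1, adjusted p = 0.102), and no other call changed. The numbers share no animal between groups: deviations of same-numbered libraries correlated at -0.284 to 0.35 in the pituitary and -0.249 to 0.335 in the hypothalamus, each over 0.1 in 6 of 24 pairs, and 2 of 16 pituitary and 0 of 16 hypothalamus libraries correlated best with their own number. The 4 birds a group and low counts of SYT8, STX19 and CPLX3 limit the precision of small differences.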
